A study of Mus musculus with 24 samples.

Results

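Id1, Id2 and Id3 encode inhibitor of DNA binding (ID) proteins, and their transcripts were followed through a 4-thiouridine (4SU) pulse and chase in 24 libraries of mouse preleukemic cells. The 3 genes were taken by matching transcript accessions to symbols, out of 20868 genes in the tables, and they were chosen by their abundance, conversion rates and fitted half-lives in these same libraries. Those values are therefore given as descriptions, and tests are given for other genes. Reads were spread very unevenly over the 3 genes. Id1 drew 20388 reads over the 24 libraries, Id2 drew 2331, and Id3 drew 2.

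ID proteins hold a helix-loop-helix domain but no basic region, so they pair with E proteins (Tcf3, Tcf4 and Tcf12) and keep them off DNA. In blood, E proteins and their partners such as Tal1 drive lymphoid and erythroid programs, and ID proteins are known for keeping progenitors dividing and for steering cells away from lymphoid fates. Id genes are classical direct targets of bone morphogenetic protein (BMP) signalling through SMAD1 and SMAD5, and their transcripts and proteins are known as short-lived.

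Cells came from c-Kit-enriched E14.5 fetal liver of C57BL/6 mice and were transformed with retroviral Meis1 and Hoxa9, so all 8 groups share both transgenes. Deletion cells (cDKO) carried fl/fl alleles of both Tut4 and Tut7 with the Vav-iCre transgene, which acts in blood cells, and control cells came from Cre-negative littermates with the same floxed alleles. Cells were labelled with 2.9 µM 4SU for 12 h and collected 0, 60, 180 or 540 min after the medium change, with 3 replicates for each genotype and time. The labels name the chase time as the batch, so both genotypes of a time share a batch, whereas chase time and batch cannot be told apart. Library preparation primed at the poly(A) end, so a gene's counts do not scale with transcript length.

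Reads within 3′ untranslated region (UTR) intervals numbered 4380238 to 7041311 per library, and abundance is given below as CPM, the read count scaled to their total in the library. Tut4 lay between 68.1 and 105 CPM in control libraries and between 17.8 and 40.0 CPM in cDKO libraries, and Tut7 between 34.6 and 66.1 CPM and between 16.7 and 33.3 CPM, so both labels held. Library-wide T-to-C conversion, the measure of 4SU label, was lower in cDKO from the start, with 1.64% of covered T positions converted in control and 0.736% in cDKO at 0 min. The labelled cell type was checked on 9 progenitor and myeloid markers, all of which averaged at least 1 CPM in both genotypes. That bar does not show the cell type to be alike. The marker sum was 8032 to 9026 CPM in control and 2392 to 3591 CPM in cDKO. The median of Elane was 1379 CPM in control and 32.0 CPM in cDKO, and that of Prtn3 was 2843 and 639 CPM. Mpo had replicate means of 500, 646 and 572 CPM in control, against 191, 9.45 and 1.47 CPM in cDKO. Only Cd34 (20.1 and 27.6 CPM) and Cebpa (147 and 175 CPM) had a higher median in cDKO. Whether the cell type differed was not tested.

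The letters of the Id 3′UTRs are shown first because AU-rich pentamers are bound by proteins that shorten the life of a transcript. The authors' intervals on mm10 are chr2:152737014-152737410 on the plus strand for Id1, chr12:25093799-25094576 on the minus strand for Id2 and chr4:136144880-136145392 on the plus strand for Id3. Each lies in the 3′UTR of its gene, and no interval of another gene overlaps it. Id2 and Id3 have a further interval of 7 and 23 bases. The motifs were searched on the sense strand of GENCODE vM39 transcripts, from the start of the interval to the transcript end. Of the 3 genes, only Id2 held a pentamer (ATTTA), at 3 places, and it also held a Pumilio-type site (TGTANATA) whose last base is the first base of the pentamer at 455. The number before each stretch is the position of the first motif base, counted from the 5′ end of the 778-base interval, and capitals mark the motif.
Id2 pentamer at 206: gataccgttATTTAtgagagactt
Id2 pentamer at 455: tgtgtatatATTTAtatataaata
Id2 pentamer at 731: ccagttcaaATTTAtgtagactgt
Id2 Pumilio-type site at 448: gaatgctgTGTATATAtttatata

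The pentamer is common. It was held by 60.7% of 20245 transcript ends of the length of Id2, by 55.1% of 20844 ends of the length of Id1 (611 bases) and by 50.7% of 21135 ends of the length of Id3 (513 bases). The Pumilio-type letters were held by 13.0% of ends of the length of Id2. The longer nonamer TTATTTATT was in none of the 3 genes, against 2.68 to 3.56% of transcript ends. The longest Id1 transcript runs 214 bases beyond the authors' interval, and reads ending there would fall outside the counted interval.

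Id1 was the abundant member in both genotypes. In control it stood at 135, 154 and 160 CPM at 0 min (replicates 1 to 3), at 117, 124 and 123 CPM at 60 min, at 125, 114 and 125 CPM at 180 min, and at 149, 150 and 155 CPM at 540 min. In cDKO it stood at 152, 169 and 167 CPM at 0 min, at 169, 157 and 150 CPM at 60 min, at 206, 223 and 195 CPM at 180 min, and at 185, 203 and 186 CPM at 540 min. The genotypes overlapped at 0 min and did not overlap at 60, 180 and 540 min, where every cDKO library was above every control library. Over all genes, 20.2, 18.9 and 19.2% were called between genotypes at those times by the edgeR quasi-likelihood test, and 13.4% at 0 min.

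The log2 difference of Id1, cDKO minus control, was 0.14 ± 0.10 at 0 min, 0.37 ± 0.08 at 60 min, 0.76 ± 0.09 at 180 min and 0.33 ± 0.07 at 540 min (estimate ± SE, n = 3 per group). The gap was widest at 180 min, when control libraries were at 121 ± 6.36 CPM and cDKO libraries at 208 ± 13.9 CPM (mean ± SD, n = 3). In these bulk samples, fewer cells of a type and less RNA per cell cannot be told apart.

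**Figure D1:**
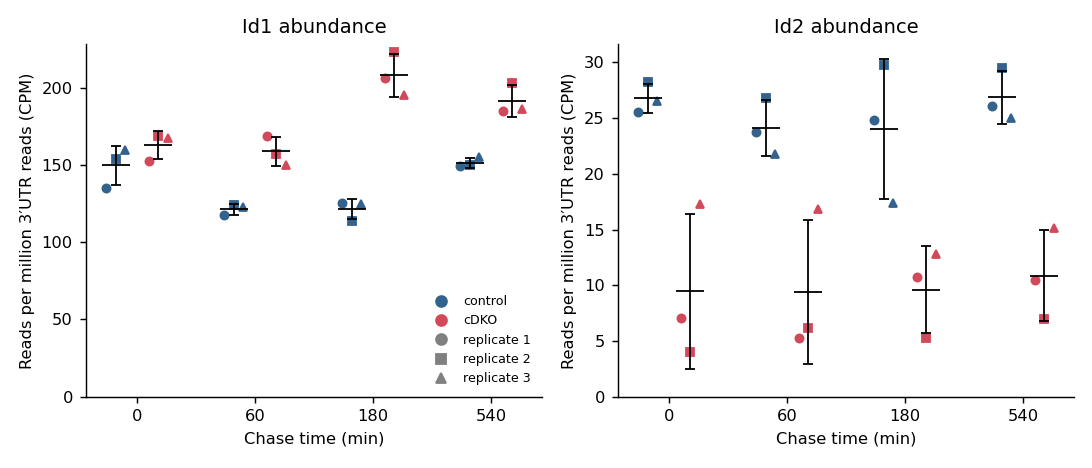
Abundance of Id1 and Id2 in CPM against chase time in min, for control (blue) and cDKO (red) libraries, with the replicate number as marker shape and black bars at the mean ± SD of 3. Id1 separates at 180 min (control mean 121 CPM, cDKO mean 208 CPM), and Id2 in cDKO stays below control at each time, with cDKO replicate 3 highest.

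Over the chase in control, the log2 change of Id1 from 0 min was -0.29 ± 0.08 at 60 min and -0.29 ± 0.08 at 180 min (estimate ± SE, n = 3). At both times all 3 libraries were below all 3 libraries of 0 min. At 540 min the libraries overlapped those of 0 min, with a log2 change of -0.02. Of all genes, 2.1, 6 and 17.7% were called at 60, 180 and 540 min. In cDKO the log2 changes of Id1 from 0 min were -0.03 ± 0.09, 0.35 ± 0.09 and 0.20 ± 0.09.

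Labelled Id1 was lost quickly in control. The conversion rate, converted T positions over covered T positions, was 1.84 ± 0.0899% at 0 min, 0.732 ± 0.102% at 60 min, 0.449 ± 0.0506% at 180 min and 0.234 ± 0.0473% at 540 min (mean ± SD, n = 3). These rest on 1310, 393, 236 and 191 conversions per time. In cDKO the rate was 0.789 ± 0.197%, 0.507 ± 0.0694%, 0.235 ± 0.0674% and 0.172 ± 0.0353%, from 542, 334, 208 and 155 conversions. The cDKO libraries of 0 min were at 0.817, 0.970 and 0.579%, and replicate 3 was also lowest in its library-wide rate (0.542%). The cDKO rates lay below all control rates at 0, 60 and 180 min and overlapped them at 540 min.

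Relative to the whole library, Id1 carried about as much label in both genotypes at the start. Its rate was 1.12 ± 0.0392 times the library-wide rate in control and 1.07 ± 0.0763 times in cDKO at 0 min. At 60 min the ratios were 0.492 ± 0.0634 and 0.750 ± 0.143, and at 180 min they were 0.416 ± 0.0376 and 0.466 ± 0.0686. The Id1 rate thus fell by more than the library-wide rate up to 180 min in both genotypes. By 540 min the library-wide rate itself had dropped to 0.314% in control and 0.187% in cDKO, and the ratios were back at 0.744 ± 0.140 and 0.943 ± 0.321, so over the last step the Id1 rate fell by less than the library-wide rate.

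A single exponential fitted to the 12 libraries of a genotype gave Id1 a half-life of 58.5 min for control, against 111 min for cDKO. Among 3712 genes with a fit in both genotypes the medians were 224 and 251 min, and 31 genes had a shorter half-life than Id1 in control, against 441 in cDKO. Fits to single replicate numbers gave 48.1, 65.6 and 62.5 min for control. For cDKO they gave 113, 90.6 and 167 min, all longer. The exponential removed 90.2% of the sum of squares around a constant in control and 79.6% in cDKO. For Id1, the fitted cDKO value therefore came from rates that fell with time, not from a constant rate.

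With no background subtracted, the Id1 rate did not fall as a single exponential in either genotype. Taken step by step, the control half-life was 45.0 min from 0 to 60 min, 170 min from 60 to 180 min and 384 min from 180 to 540 min. The cDKO steps gave 94.1, 108 and 790 min. A floor rate of 0.0619% was taken from 418 short-lived genes, and it is a larger part of the lower cDKO rates. After its subtraction the control steps were 42.5, 152 and 309 min. Those of cDKO became 84.8, 88.2 and 544 min, so its first 2 steps were nearly alike. The last step stayed the longest in each genotype. How much of the late rate was background was not tested. At 540 min, 12.7 ± 2.57% of the 0 min rate was left in control and 21.7 ± 4.48% in cDKO, far above what the fits give there. With a plateau allowed, the half-lives were 33.6 and 65.0 min, and with a log-linear fit they were 214 and 272 min. The single exponential after subtraction of the floor gave 52.6 min (control) and 89.7 min (cDKO). The cDKO value was above the control value in each of these fits, and the gap was smallest, as a ratio, in the log-linear fit. The difference in decay slope from the count model, cDKO minus control, was 0.07 ± 0.05 log2 per h, where the median of all 9207 genes was also 0.07.

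**Figure D2:**
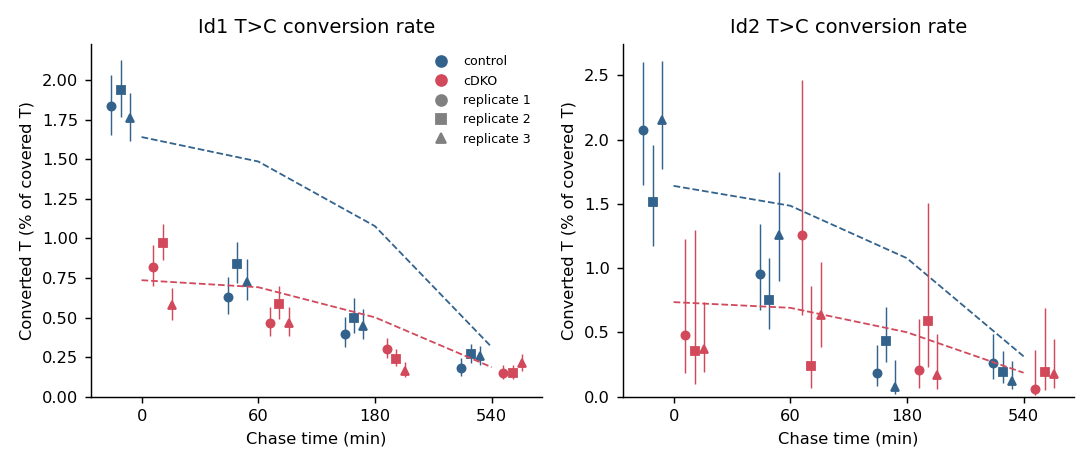
Conversion rate (% of covered T) of Id1 and Id2 in each library against chase time in min, with Wilson 95% intervals as bars, control in blue and cDKO in red, and dashed lines for the mean library-wide rate. Id1 drops below the library-wide line by 60 min in both genotypes, while the Id2 intervals in cDKO are wide and overlap across times.

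Id2 was the scarcer member, and it was lower in cDKO. In control it stood at 25.6, 28.2 and 26.5 CPM at 0 min, at 23.8, 26.8 and 21.7 CPM at 60 min, at 24.9, 29.8 and 17.4 CPM at 180 min, and at 26.0, 29.5 and 25.0 CPM at 540 min. In cDKO it stood at 7.08, 4.06 and 17.3 CPM at 0 min, at 5.24, 6.19 and 16.9 CPM at 60 min, at 10.8, 5.29 and 12.8 CPM at 180 min, and at 10.5, 7.00 and 15.1 CPM at 540 min. Every cDKO library was below every control library of its time, and cDKO replicate 3 was the highest of its group at each of the 4 times. Over all genes, 13.4, 20.2, 18.9 and 19.2% were called between genotypes at 0, 60, 180 and 540 min, and 6.64, 10.2, 9.78 and 10.4% were called lower. The log2 differences of Id2 were -1.50 ± 0.42, -1.36 ± 0.37, -1.33 ± 0.33 and -1.31 ± 0.27 at these times.

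Without cDKO replicate 3 the differences at 0 and 60 min were -2.27 and -2.09, over 1.5 times as large. Averaged over the 4 times, Id2 was at 8.39, 5.64 and 15.5 CPM in cDKO replicates 1 to 3, and at 25.1, 28.6 and 22.7 CPM in the control replicates. Over the control chase Id2 changed by -0.13, -0.14 and -0.04 in log2 at 60, 180 and 540 min. In cDKO its changes from 0 min were 0.02, 0.03 and 0.17, with an SE of 0.57. With the replicate number as a block, which pairs the cDKO cultures, they were 0.05, 0.13 and 0.28, with an SE of 0.29.

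Marker genes of other cell types differed between genotypes and between the cDKO replicates. The sum of 7 erythroid markers was 0.372 to 3.07 CPM in control and 1307 to 2091 CPM in cDKO, nearly all of it Hbb-bt, an adult beta-globin gene, while the erythroid factor Gata1 was at 0 in all control libraries and at most 0.181 CPM in cDKO. Klf1, another erythroid marker, had a median of 0.489 CPM in control and 0.302 CPM in cDKO. Averaged over times, the erythroid sum was 1379, 1521 and 2008 CPM in cDKO replicates 1 to 3. The sum of 6 mast cell and basophil markers was 15.8 to 34.5 CPM in control and 132 to 247 CPM in cDKO, with replicate means of 146, 158 and 223 CPM, carried by Cpa3, a mast cell protease, and Gata2, a progenitor and mast cell factor. Cpa3 was at 0 in all 12 control libraries, and Fcer1a in all 24. The medians of Mcpt8 (14.6 CPM in control, 9.89 CPM in cDKO) and Ms4a2 (6.17 and 5.98 CPM) did not rise. So cDKO replicate 3, where Id2 was highest within cDKO, also had the highest erythroid and mast cell sums. Between genotypes, Id2 was lower in cDKO, where these sums were higher. Whether such cells were present, and any part of theirs in the Id2 values, was not tested. Megakaryocyte markers summed to 1.11 to 6.0 CPM in control and 6.92 to 23.7 CPM in cDKO, with Gp1bb at 0 in all libraries. The rise was in Itga2b alone, from a median of 0.365 to 13.1 CPM. The median of Pf4 was lower in cDKO (1.46 CPM) than in control (2.94 CPM). The sums of 4 monocyte and macrophage markers overlapped, with 3620 to 4168 CPM in control and 3382 to 4691 CPM in cDKO. Nearly all of this was Ly6c2 (medians 3770 and 3720 CPM). The other members did differ, as Csf1r fell from a median of 28.6 CPM in control to 0.787 CPM in cDKO. Cd68 fell from 25.4 to 16.1 CPM, and Adgre1 rose from 20.6 to 198 CPM. The 4 lymphoid markers summed to at most 1.99 CPM.

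**Figure D3:**
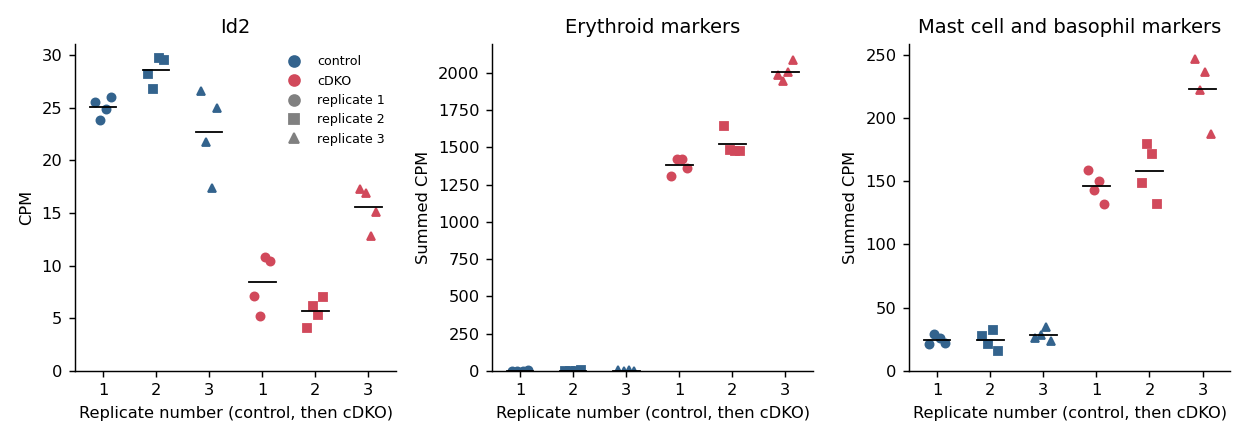
Id2 in CPM, and the summed CPM of 7 erythroid and 6 mast cell and basophil markers, by replicate number, with 4 libraries (chase times) per replicate, black lines at their means, control in blue and cDKO in red. Within cDKO, replicate 3 is highest in all 3 panels, with mean values of 15.5, 2008 and 223 CPM.

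Id2 in control had a fitted half-life near that of Id1 but a different course over the steps. Its rate there was 1.91 ± 0.349% at 0 min, 0.989 ± 0.252% at 60 min, 0.233 ± 0.184% at 180 min and 0.193 ± 0.0664% at 540 min, from 227, 95, 25 and 25 conversions. The fitted half-life was 62.1 min, with 43 of 3712 genes shorter, and the replicate fits gave 53.3, 80.7 and 61.8 min. The exponential removed 91.2% of the sum of squares around a constant, and 10.1 ± 3.47% of the starting rate was left at 540 min. Step by step, the Id2 control half-life was 63.1, 57.6 and 1330 min, against 45.0, 170 and 384 min for Id1. The last Id2 step rests on 25 conversions at each end.

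In cDKO the Id2 rates rested on few conversions. At 0 min the 3 replicates held 4, 2 and 8 conversions, at 60 min 8, 2 and 15, at 180 min 3, 4 and 3, and at 540 min 1, 2 and 4. The rates were 0.481, 0.358 and 0.373% at 0 min, 1.26, 0.238 and 0.635% at 60 min, 0.205, 0.590 and 0.167% at 180 min, and 0.0638, 0.191 and 0.176% at 540 min. The mean was thus higher at 60 min (0.711%) than at 0 min (0.404%), which no decay curve from 0 min can follow. In proportion to the library-wide rate, Id2 began at 1.17 ± 0.229 in control and at 0.566 ± 0.133 in cDKO. The libraries ranged from 0.906 to 1.32 in control and from 0.424 to 0.688 in cDKO.

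The fitted Id2 half-life in cDKO was 566 min, longer than that of 86.7% of the genes. The exponential, which is held to the 0 min mean, removed only 13.4% of the sum of squares around a constant. After the higher mean of 60 min the rates fell, with step half-lives of 105 min from 60 to 180 min and 310.0 min from 180 to 540 min. The long fitted value thus describes neither step, and it goes with a 0 min mean below that of 60 min. Replicate fits spread from 394 to 1476 min. Without the 540 min libraries the fit ran to its upper bound of 10000 min, and with a log-linear fit it was 280 min. Pooled over replicates, the rate was 0.396% at 0 min (Wilson 95% interval 0.236 to 0.664%), 0.651% at 60 min (0.441 to 0.959%), 0.254% at 180 min (0.138 to 0.467%) and 0.143% at 540 min (0.0693 to 0.295%). All pairs of these intervals overlapped except those of 60 and 540 min. The share of the 0 min rate left at 540 min was 35.5 ± 17.2%, and at that time the cDKO rate was no higher than the control rate of 0.193%. That cDKO rate rests on 7 conversions, and the library-wide rate was also lower in cDKO. In proportion to the library-wide rate, Id2 at 540 min was at 0.777 ± 0.392 in cDKO and 0.614 ± 0.213 in control.

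**Figure D4:**
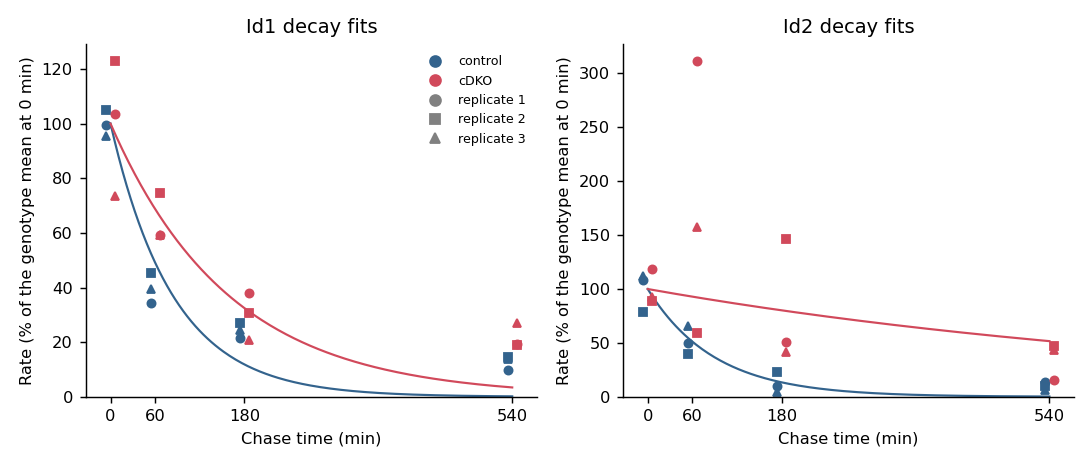
Conversion rate as % of the genotype's mean at 0 min against chase time in min, one marker per library, with the fitted exponentials as lines (control blue, cDKO red). The fitted control curves of Id1 and Id2 fall alike (half-lives 58.5 and 62.1 min). The Id2 cDKO curve (566 min) passes through points between 15.8% and 312% of the 0 min mean.

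Id3 could not be described beyond its scarcity. It had 0 reads in 23 libraries and 2 reads in cDKO replicate 1 at 540 min, with no conversion among 40 covered T positions. A count of 0 allows up to 0.426 to 0.685 CPM, depending on the library. Id3 had no half-life and did not pass the filter for the abundance tests, which Id1 and Id2 passed in every comparison. Id4, the fourth family member, had 0 reads in all 24 libraries.

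Id1 and Id2 did not vary together. Their correlation over the 24 libraries was -0.64 (Pearson r of log2(CPM + 1)), and within control it was 0.31 and within cDKO -0.08. The genes most like Id1 over the 24 libraries, of 8321 with a mean of at least 10 CPM, were Mical1 (r = 0.85), Lman2 (r = 0.83) and D16Ertd472e (r = 0.83). Those most like Id2 were Tpd52 (r = 0.96), the chemokine receptor gene Ccr2 (r = 0.96) and Hpgd (r = 0.94), a prostaglandin-degrading enzyme. Within cDKO alone these 3 still had r of 0.88, 0.89 and 0.83, while within control they had 0.50, 0.40 and 0.15. The points share libraries and genotype, and the values are descriptions.

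Genes around the ID proteins were taken from 11 lists with 80 entries, of which 46 could be tested at 0 min, 50 at 60 min, 46 at 180 min and 45 at 540 min. Between genotypes, 6 were higher and 5 lower in cDKO at 0 min, 10 and 8 at 60 min, 6 and 8 at 180 min, and 3 and 6 at 540 min (edgeR adjusted p under 0.05). That is 23.9, 36.0, 30.4 and 20.0% of the tested entries, beside 13.4, 20.2, 18.9 and 19.2% of all genes. The lists were chosen with earlier results of these data known, so a higher share in them cannot be read as an enrichment. By direction, 6.72, 9.97, 9.1 and 8.89% of all genes were higher and 6.64, 10.2, 9.78 and 10.4% were lower. The lists' median log2 differences were 0.03, 0.02, 0.04 and -0.03, against medians near 0 over all genes. Of the 26 genes called at 1 or more times, only Tcf4 was kept under every alternative at each time it was called.

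Among the E proteins, Tcf4 fell at all 4 times, and Tcf3 and Tcf12 passed at none. Tcf4 was at 55.3 ± 4.71 CPM in control and 10.4 ± 2.36 CPM in cDKO at 0 min, and at 70.5 ± 11.7 and 8.44 ± 1.92 CPM at 540 min. Its log2 differences were -2.41 ± 0.19, -2.83 ± 0.26, -2.93 ± 0.26 and -3.07 ± 0.20 (edgeR adjusted p = 0.000122, 6.75e-05, 4.11e-05 and 2.86e-05). The groups did not overlap at any time. Of the bHLH partners, Tal1 rose at 0 min (log2 difference 2.19, adjusted p = 0.0460), a call lost without replicate 1 or 2. At 60, 180 and 540 min its log2 differences were 2.73, 2.37 and 1.85, which missed the threshold (adjusted p = 0.0523, 0.0642 and 0.0997). Lyl1 fell at 60 min by 0.28 on the log2 scale (adjusted p = 0.0412), a call lost without replicate 1 or 3.

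Along the BMP and TGF-beta axis, of 8 ligand genes only Tgfb1 could be tested, and it passed at no time. The type I BMP receptor gene Bmpr1a rose at all 4 times, by 0.91, 0.75, 0.74 and 0.74 in log2 (adjusted p from 0.00251 to 0.0320), from 31.5 ± 2.88 to 58.5 ± 3.63 CPM at 0 min, though at each time the call was lost without replicate 1 and at 540 min also without replicate 2. Smad1, which carries the BMP signal, had 0 reads in the 3 control libraries of 0 min and 203 reads in cDKO, at least 79.1-fold higher against a floor of 3 counts over the group. Over the 4 times it stood at 0 to 1.23 CPM in control and 6.13 to 17.1 CPM in cDKO. It entered the test through its cDKO counts alone, so its calls at all 4 times add nothing to these counts. The 60 min call was lost without replicate 1. Smad5, the other BMP transducer among the tested genes, was at 69.3 CPM in control and 81.4 CPM in cDKO (medians of 12) and passed only at 180 min, by 0.45 in log2 (adjusted p = 0.0218), a call lost without replicate 1 or 2. Smad3, a TGF-beta transducer, fell at 60 and 540 min, by 1.07 and 0.91 on the log2 scale (adjusted p = 0.0199 and 0.00767), and the first call was lost without replicate 2 or 3, the second without replicate 1 or 3. Among the remaining receptors and SMADs, Acvr2a and Smad4 rose at 60 min by 1.38 and 0.49 in log2 (adjusted p = 0.0338 and 0.0201), and Tgfbr1 rose at 180 min by 0.56 (adjusted p = 0.0390). The calls of Acvr2a and Tgfbr1 were lost with any replicate left out, that of Tgfbr1 also with DESeq2, and that of Smad4 without replicate 1 or 2.

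Inhibitors of the axis were lower where they passed. Ski, a SMAD corepressor, fell at 0, 60 and 180 min by 0.61, 0.46 and 0.53 on the log2 scale (adjusted p = 0.0112, 0.0156 and 0.00463), and each of these calls was lost without replicate 1, that of 60 min also without replicate 3. Skil, a related corepressor, fell at 180 min by 0.70 on the log2 scale (adjusted p = 0.0148) and had log2 differences of -0.31, -0.21 and -0.36 at 0, 60 and 540 min that did not pass. Smad6, an inhibitory SMAD, passed the filter on low counts at 180 min only, where it fell by 1.95 on the log2 scale (adjusted p = 0.0468). The Skil call was lost without replicate 1 or 2, and the Smad6 call with any replicate left out. Of 14 genes listed as E protein targets, 3 could be tested at each time. Cdkn1a, a cell cycle inhibitor, fell at 0, 60 and 180 min by 1.29, 1.26 and 0.77 on the log2 scale (adjusted p = 0.000122, 0.000276 and 0.00519), and at 540 min it did not pass (log2 difference -0.12, adjusted p = 0.640). The 180 min call of Cdkn1a was lost without replicate 1. Notch1 fell at all 4 times, by 0.48 to 0.94 on the log2 scale (adjusted p from 0.00457 to 0.0306). The Notch1 call of 60 min held with each replicate left out, while that of 0 min was lost without replicate 1 or 3, that of 180 min without replicate 2 and that of 540 min without replicate 1 or 2. Cdkn2a, on the same list, went the other way, with 0 reads in all 12 control libraries and 1.32 to 14.6 CPM in the 12 cDKO libraries. Of the lymphoid members, Rag1, Dntt and Cd79a had 0 reads in all libraries, while Vpreb1, Igll1, Rag2, Ptcra, Ebf1 and Il7r had reads in some libraries and reached at most 2.04 CPM.

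**Figure D5:**
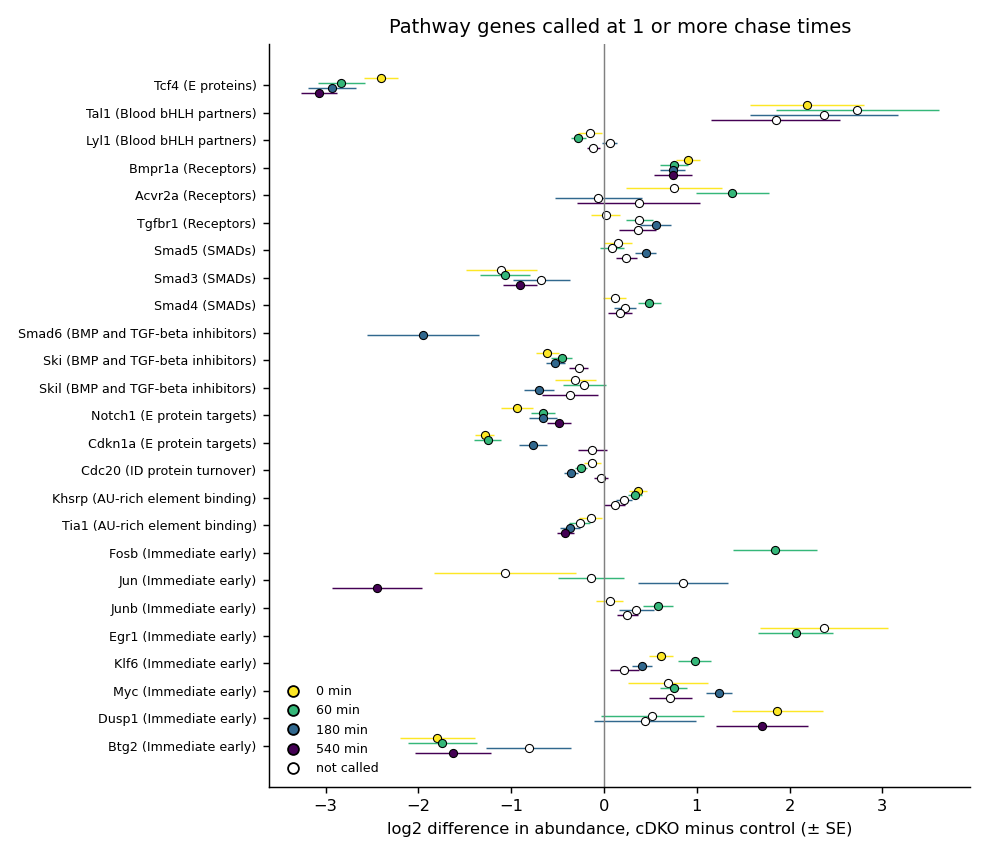
Log2 difference in abundance, cDKO minus control, with SE bars, for the listed genes called at 1 or more of the 4 chase times (colour, in min), Smad1 left out because control was at or near 0. Filled points passed edgeR adjusted p under 0.05 and open points did not, and Tcf4, Bmpr1a and Notch1 are filled at all 4 times.

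Genes that bear on the stability of ID products moved little. Of 4 genes of ID protein turnover, Cdc20, an activator of the ubiquitin ligase that marks ID proteins, fell by 0.25 at 60 min and 0.35 at 180 min on the log2 scale (adjusted p = 0.0199 and 0.00732), and the first call was lost with any replicate left out, the second without replicate 1. Of 7 genes for proteins that bind AU-rich elements, Khsrp rose at 0 and 60 min by 0.37 and 0.33 in log2 (adjusted p = 0.0327 and 0.0105). Tia1 fell at 180 and 540 min by 0.37 and 0.42 on the log2 scale (adjusted p = 0.0317 and 0.0115). All 4 calls were lost without replicate 1, those of Khsrp at 0 min and Tia1 at 540 min with any replicate left out, that of Khsrp at 60 min also without replicate 2 and that of Tia1 at 180 min also without replicate 3.

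Immediate early genes, whose transcripts are known as short-lived, went both ways. Klf6 rose at 0, 60 and 180 min by 0.62, 0.98 and 0.41 in log2 (adjusted p from 0.00315 to 0.0282) and Myc rose at 60 and 180 min by 0.75 and 1.23 in log2 (adjusted p = 0.00520 and 0.000214). Btg2 fell at 0, 60 and 540 min by 1.80, 1.74 and 1.63 on the log2 scale (adjusted p from 0.00830 to 0.0231). Egr1 rose at 60 min by 2.06 (adjusted p = 0.00549), Dusp1 rose at 0 and 540 min by 1.87 and 1.70 (adjusted p = 0.0365 and 0.0405), and Jun fell at 540 min by 2.45 on the log2 scale (adjusted p = 0.00768). With any replicate left out the calls of Dusp1 and of Klf6 at 180 min were lost. Without replicate 1 those of Egr1, of Btg2 at each time, of Klf6 at 0 and 60 min and of Myc at 60 min were lost, those of Btg2 also without replicate 2, and that of Klf6 at 0 min also without replicate 3. The Jun call was lost without replicate 3, and the Myc call at 180 min was kept.

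Over the control chase, 4 listed genes rose and 1 fell at 60 min, 5 rose and 5 fell at 180 min, and 2 rose and 9 fell at 540 min, of 47 tested. Over all genes, 0.983, 3.23 and 8.4% rose and 1.12, 2.77 and 9.3% fell. Tcf12, an E protein, rose from 83.5 ± 6.55 CPM at 0 min to 116 ± 6.17 CPM at 180 min and 126 ± 10.3 CPM at 540 min (adjusted p = 0.00213 and 0.000181). Cdkn1a fell by 1.23 on the log2 scale by 540 min, from 620 ± 36.1 to 273 ± 24.4 CPM (adjusted p = 7.23e-13). Ski rose by 0.80 in log2 at 180 min and fell by 0.51 at 540 min (adjusted p = 2.81e-06 and 0.000411). At 60 min Gfi1, a repressor, fell by 0.71 on the log2 scale (adjusted p = 8.01e-05), and at 180 min Zfp36l2, which binds AU-rich elements, fell by 0.55 (adjusted p = 0.00103). At 180 min Lyl1 fell by 0.38 on the log2 scale (adjusted p = 0.000421) and at 540 min Tia1 rose by 0.56 (adjusted p = 3.81e-05). Each of these calls held with any replicate left out. The 4 rises at 60 min were of the immediate early genes Fosb, Jun and Klf6, and of Bambi. All 4 of these calls were lost without replicate 1. Those of Fosb, Jun and Klf6 were also lost without replicate 2, and that of Bambi also without replicate 3. With DESeq2 the calls of Fosb, Jun and Bambi were lost. Of the 18 genes called over the control chase, 3 (Tcf12, Lyl1 and Ski) were kept under every alternative at each time they were called.

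In cDKO, 0, 1 and 1 of 53 listed genes passed at 60, 180 and 540 min, beside 0.00956, 0.0669 and 0.984% of all genes. At 60 min, 10 had an unadjusted p under 0.05 and DESeq2 called 2, beside 0.115% of all genes. Ski rose at 180 min by 0.91 in log2 (adjusted p = 0.00413) and Ier3 at 540 min by 0.58 (adjusted p = 0.0427), and both calls were lost with any replicate left out. With the replicate number as a block, which pairs cDKO cultures across times, 4, 2 and 8 listed genes passed, beside 0.21, 1.05 and 7.58% of all genes. Those at 60 min were Klf6, Fosb, Gfi1 and Jun, with log2 changes of 0.90, 4.22, -0.57 and 2.66 (adjusted p = 3.91e-05, 0.000183, 0.00700 and 0.0334).

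No listed gene passed the test of the decay slope between genotypes, of 39 tested, beside 0.13% of 9207 genes, all 12 of them with a slower fall in cDKO. Among the listed genes 8 had an unadjusted p under 0.05, and DESeq2 and the fit with a replicate block called 1, Cdc20, with slope differences of 0.12 ± 0.03 and 0.12 ± 0.02 log2 per h (adjusted p = 0.0177 and 0.0119), beside 2.25 and 0.641% of all genes. The difference for Id2 was 0.14 ± 0.12 log2 per h, and without the 540 min libraries it was 0.73.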

How the data were processed

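Libraries were 3′-end libraries (QuantSeq FWD) sequenced in one pool, with 3 biological replicates per group as the labels number them. The submitters' processing notes name SlamDunk 0.4.3 and mm10. Per 3′UTR interval, the authors deposited whole-number counts of reads, converted reads, conversions and covered T positions. The authors also deposited CPM values, scaled to filtered reads (9552906 to 13882269 per library), and the conversion rate as a fraction. CPM and rates were recomputed here from the counts. Intervals overlapping within a gene were reduced to the longest. The members and gene lists were chosen with earlier results of these data known. Genes are named as follows: the Id genes, the list members that passed (at most 4 per list and comparison, by smallest adjusted p), and the 3 most correlated genes.

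Abundance was tested with the edgeR 4.0.16 quasi-likelihood test (TMM, filterByExpr, threshold 0.05) per chase time or per genotype, with no p given for the Id genes, whose abundance entered their choice, and DESeq2 1.42.0 was an alternative. Decay slopes were compared with the same test on conversions, offset by covered T (at least 100 in each library and 50 conversions in all). Exponentials were fitted with half-lives bounded to 1 to 10000 min. A mean normalised rate over 0.8 and an SD under 0.3 at 0 min were required. Scripts were tested on simulated data. Intervals and floors (3 counts) cover counting error only, since reads carry no molecular identifiers. Same-numbered cDKO libraries deviated together between times (r from 0.26 to 0.71, 9 pairs), so the numbers pair the cDKO cultures. Between genotypes r was -0.08 to 0.10 and in control -0.03 to 0.11, which shows no pairing.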

Additional observations from a re-analysis of the deposited data

Results flagged for a closer look

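Id1 abundance moved in opposite directions between 0 and 180 min in the 2 genotypes. All 3 control libraries of 180 min (114 to 125 CPM) lay below the control mean of 0 min (149.6 CPM), and all 3 cDKO libraries of 180 min (195 to 223 CPM) lay above the cDKO mean of 0 min (163 CPM). The log2 change in cDKO minus that in control was 0.64, and this difference was not tested. At 60 and 540 min the libraries of the 2 genotypes did not all part in this way. Groups of 3 libraries were too small to look for single outlying samples.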

How the results depend on the processing

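Under the alternatives, 293 recomputed values moved by less than the replicate spread, or as a count by less than 1.5 times, 23 values moved by more, and 19 counts were lower and 7 higher. With a replicate left out, some changes near 0 over the chase changed sign: that of Id2 at 180 min ranged from -0.30 to 0.04 in control and from -0.24 to 0.54 in cDKO, that of Id2 at 60 min in cDKO from -0.12 to 0.12, and those of Id1 and Id2 at 540 min in control from -0.07 to 0.0045 and from -0.08 to 0.0037. No library without 4SU was analysed here, and the Id2 rates in cDKO are limited by 558 to 2363 covered T positions per library. The cause of the changes below was not tested.

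The Id1 change in control at 180 min ranged from -0.36 to -0.23 with a replicate left out. The share of the 0 min rate left at 540 min for Id1 was 16.4% in control by the share of reads with a conversion, 9.68% in control and 15.1% in cDKO with the floor of short-lived genes subtracted, and 66.2% and 88.1% with the rate taken over the library-wide rate. For Id2 the last gave 52.6% in control and 137% in cDKO. With a replicate left out, the Id1 share in cDKO ranged from 16.9 to 26.1%, the lowest without replicate 3.

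The log-linear fit gave 214 min for Id1 in control, 272 min in cDKO, and 180.0 min for Id2 in control. The plateau fit, chosen after seeing the data, gave Id1 33.6 and 65.0 min, and converted reads per total gave Id1 in cDKO 155 min. Without 540 min the Id2 fit in cDKO ran to 10000 min, and the Id2 decay difference was 0.73 log2 per h.

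With a replicate left out, the Id2 difference between genotypes ranged from -2.28 to -1.10 at 0 min and from -2.16 to -1.04 at 60 min. That of Id1 at 60 min ranged from 0.30 to 0.41, and the Id1 change in cDKO at 60 min from -0.14 to 0.0071. Fits without cDKO replicate 3 alone were also chosen after seeing the data.

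Pathway genes called between genotypes ranged from 3 to 12 at 0 min, 4 to 20 at 60 min, 4 to 16 at 180 min and 4 to 13 at 540 min with a replicate left out, lowest without replicate 1 (at 540 min also without replicate 2) and highest without cDKO replicate 3 alone (at 0 min also without replicate 2). Those over the control chase ranged from 1 to 4, 4 to 6 and 7 to 11, lowest without replicate 1 (at 540 min also without replicate 3), and the cDKO calls at 180 and 540 min fell to 0. In cDKO, 2 were called at 60 min by DESeq2 and 4 with the replicate block, 2 at 180 min with the replicate block, and 4 by DESeq2, 8 with the replicate block and 0 with no filter at 540 min. The decay difference gave 1 call by DESeq2 and 1 with the replicate block. Between genotypes, where the numbers show no pairing, the replicate block gave Id2 -1.66, -1.50, -1.35 and -1.35 and called 9, 16, 11 and 7 pathway genes at 0, 60, 180 and 540 min. It lost the calls of Tal1 at 0 min, Lyl1, Acvr2a, Tgfbr1, Smad6, Khsrp at 0 min, Tia1 at 180 min, Dusp1 at both times and Btg2 at 540 min. Over the control chase it called 6, 12 and 12 pathway genes.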
